A study of Mus musculus with 4 samples.

Results

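SAGA is a large coactivator complex that transcription factors recruit to chromatin. Among 9 genes listed for its subunits, only Tada1 had a Deaf1 region found in both replicates (11.1%, against 9.03% of all genes). Among 17 other genes listed for SAGA, 5 had such a region (29.4%), the strongest at Atxn7l1. Under the stricter reproducibility cut given below it was 2 of 17 (11.8%, against 4.09% of all genes). These were Atxn7l1 and Atxn7l3, and the region counted for Atxn7l3 lay nearer to Tmub2. The 9 genes were Tada1, Tada2a, Tada2b, Tada3, Taf5l, Taf6l, Supt3, Kat2a and Kat2b, out of 21887 protein-coding genes in the RefSeq table of GRCm38.p6. For each gene, every Deaf1 peak touching its annotated span or the 5 kb on either side was collected. The genes were chosen by subunit membership, and Tada1 was selected on the measured height of its summit, the highest in both peak lists, so its height and its distance from the other genes are descriptions and were not tested.

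The data came from C2C12, an established mouse myoblast line whose cells can fuse into muscle fibres, grown in serum-containing medium. Chromatin was precipitated with a Deaf1 antibody in 2 libraries, and 2 libraries were input controls without antibody. All libraries were from the same line without any treatment or altered genotype named in the labels, so no change in occupancy could be measured. The labels do not say whether the replicates came from separate cultures, so the spread between them may be technical, and peak lists cannot check the markers of myoblasts.

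SAGA carries out its work through separate modules. A histone acetyltransferase module, built on the alternative enzymes Kat2a (GCN5) or Kat2b (PCAF) with Tada3 and an ADA2 protein, acetylates histone H3. A core module of histone-fold and scaffold proteins, among them Tada1, Taf5l, Taf6l and Supt3, holds the complex together and contacts TBP. Other modules remove ubiquitin from histone H2B and bind activators. Tada2b is the ADA2 protein of SAGA, whereas Tada2a belongs mainly to ATAC, a related complex that uses the same acetyltransferases. Deaf1 is a transcription factor that binds DNA through a SAND domain, for which TTCG is the known core sequence.

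Replicate 1 had 1860 peaks and replicate 2 had 3126. Heights are given as the number of ChIP fragments stacked at a peak's summit, recovered from the fold and p that the authors' peak caller deposited. Summits had a median of 22 fragments in replicate 1, against 23 in replicate 2. The background expected anywhere in the genome was 1.8 and 2.09 fragments, and the lowest summit was 10 fragments in each list. A gene without a peak is therefore one without a summit that the authors' caller listed, which is not proof that Deaf1 was absent from it.

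Tada1 had peaks in both libraries, Tada3 and Taf6l had a peak in replicate 2 alone, and 6 of the 9 genes had none in either list. The share of all genes with none in either list was not counted, so the 6 of 9 has no like background. In replicate 1, 1 of the 9 genes had a peak, where 9.71% of all protein-coding genes had one by the same rule. In replicate 2 it was 3 of 9, against 14.6% of all genes. In the authors' combined list of regions found in both replicates, 1 of 9 had a region (11.1%), against 9.03% of all genes. As a group, then, the listed genes had a share close to the background in replicate 1 and in the combined list, and the higher share in replicate 2 rested on 2 weak peaks. The plot of strongest summits by gene shows this pattern.

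**Figure D1:**
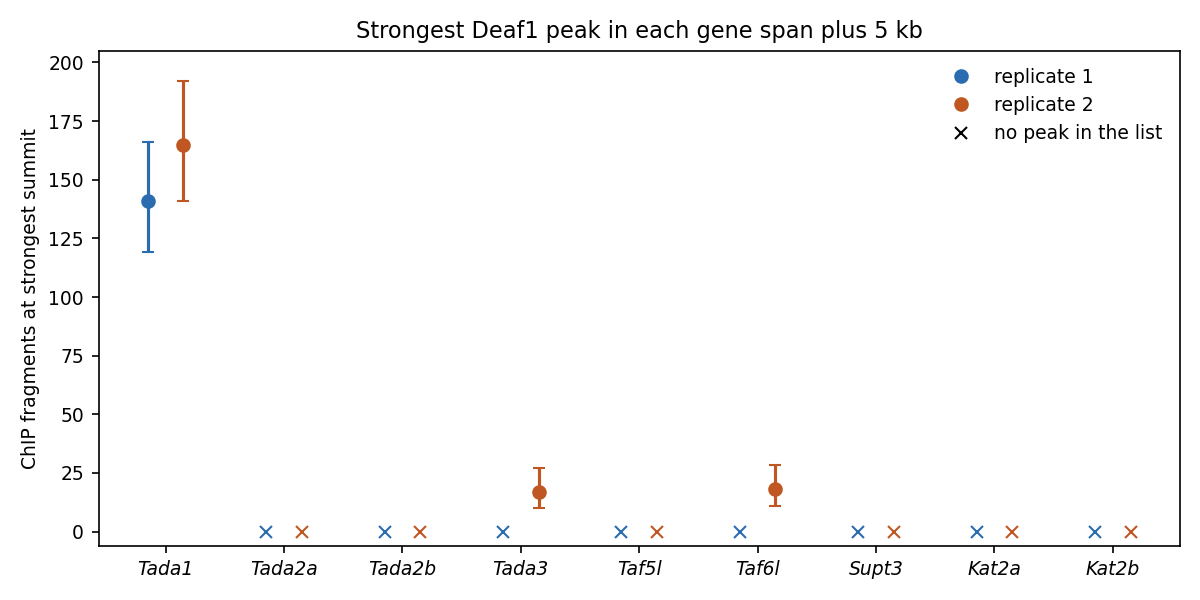
Number of ChIP fragments at the strongest summit in the span plus 5 kb of each gene, for replicate 1 (blue) and replicate 2 (orange). Bars are 95% exact Poisson intervals and crosses mark genes without a peak; Tada1 stands at 141 and 165 fragments, and the only other values are 17 at Tada3 and 18 at Taf6l, both in replicate 2.

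The main peak at Tada1, which encodes a core-module subunit with a histone fold, covered chromosome 1 from 166378502 to 166382203 in replicate 1 and from 166378462 to 166382216 in replicate 2. Its summit lay inside the annotated span of Tada1 (166379167 to 166393621), 36 bp from the span's lower end in replicate 1 and 27 bp in replicate 2. Replicate 1 had 141 fragments at this summit, with a 95% exact Poisson interval of 119 to 166. Replicate 2 had 165, with an interval of 141 to 192. Both libraries were high here, and these intervals, which cover counting error only, overlap each other.

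The highest summit elsewhere in each list had 127 fragments in replicate 1 (106 to 151) and 158 in replicate 2 (134 to 185). Those intervals overlap the ones at Tada1, so the first place of Tada1 is within counting error in each library. By fragments and by the caller's p, Tada1 ranked 1 in both lists. By the caller's fold enrichment it ranked 6 in replicate 1 and 1 in replicate 2. The fold enrichment was 39.1 and 53.7, a mean of 46.4 ± 10.4 (SD, n = 2). The local background was 2.64 fragments in replicate 1, which is 1.46 times the genome-wide value, and 2.09 in replicate 2, which equals it.

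The peak at Tada1 was also among the broadest. It was 3702 bp wide in replicate 1, rank 2 of 1860 by width, and 3755 bp in replicate 2, rank 10 of 3126, whereas the median peak was 135 bp and 152 bp wide. It was lopsided about the gene end in the same way in both libraries. In replicate 1 it reached 665 bp outside the annotated span and 3037 bp into it, and in replicate 2 it reached 705 bp outside and 3050 bp inside. No other protein-coding gene had an end within 1 kb of any summit at Tada1. The neighbour Pogk shares only its last 12 annotated bases with the far end of Tada1, and the RefSeq start of Pogk lies on its opposite side.

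Smaller peaks flanked the main one. Replicate 1 had 4 peaks in the span plus 5 kb and replicate 2 had 12, which spread over 5.67 kb and 13.2 kb. Apart from the main peak they were low, with 13 to 21 fragments in replicate 1 and 13 to 28 in replicate 2. All 4 peaks of replicate 1 overlapped a peak of replicate 2. The 8 peaks found in replicate 2 alone had 13 to 24 fragments. At least as many peaks as at Tada1 were found at 54 genes in replicate 1, Tada1 included, which is 0.247% of all genes. In replicate 2 this held for 16 genes (0.0731%). Window length was not taken into account.

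**Figure D2:**
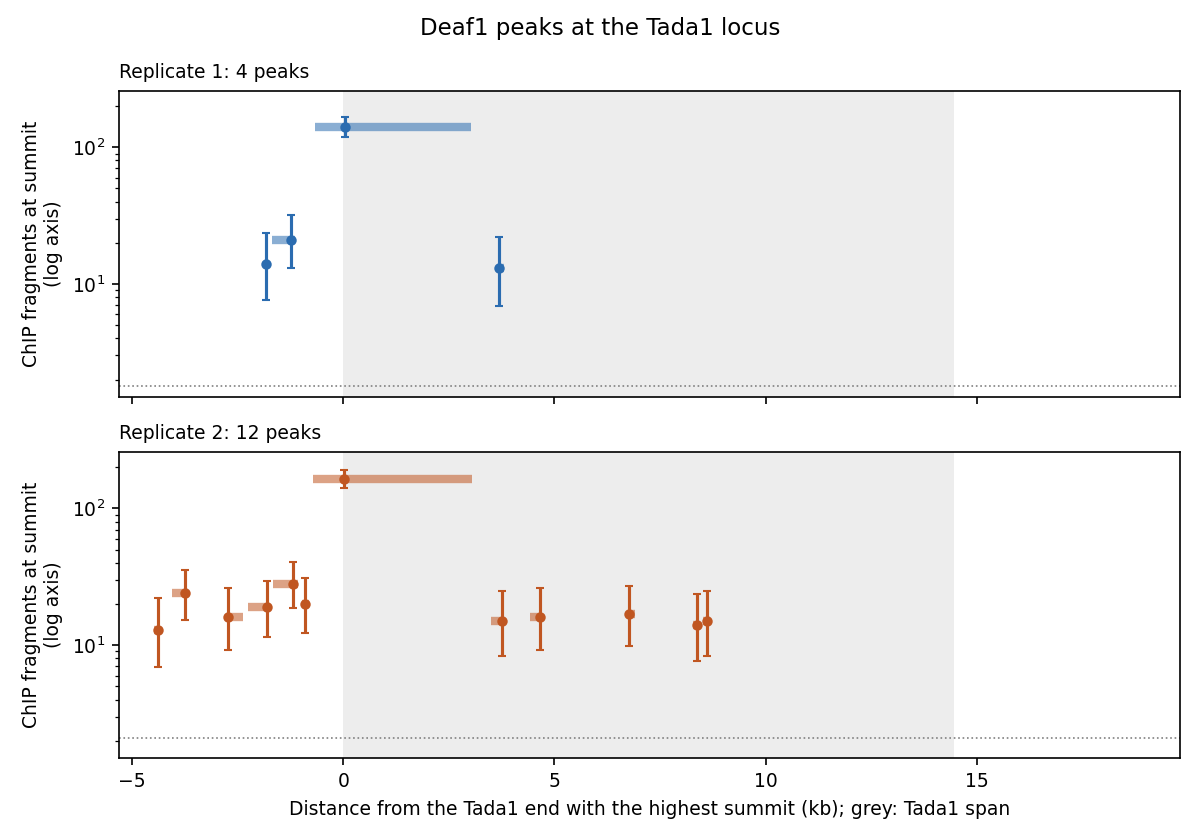
Deaf1 peaks at the Tada1 locus in each replicate, by distance in kb from the Tada1 end that carries the main summit (x axis) and ChIP fragments at the summit (y axis, log scale). Horizontal bars show each peak's width, points its summit with a 95% exact Poisson interval, grey the Tada1 span, and the dotted line the lowest background among the peaks shown; the main peak at 141 and 165 fragments runs mostly into the gene, and the other peaks lie at or below 28 fragments.

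The combined list held 4 regions at Tada1. The main one had a score of 845, equal to an irreproducible discovery rate (IDR) of 0.0091, and ranked 47 of 1550 regions by score. The IDR used here is the global one, the estimated share of irreproducible regions among those ranked at least as high. The region just outside the gene, from 166377473 to 166378100, had 21 and 28 fragments and an IDR of 0.095. The region from 166376910 to 166377433 had 14 and 19 fragments, and the one inside the gene from 166382676 to 166382963 had 13 and 15. Both of these had the lowest score in the list, 121, with an IDR of 0.51. Only the main region thus had an IDR below 0.05 at this locus.

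At the 5 kb limit, the outermost peak counted at Tada1 was in replicate 2, with its summit 4373 bp outside the gene and 13 fragments. The nearest peak left out was 5.47 kb from the gene in replicate 2, with 15 fragments, and 16.2 kb away in replicate 1, with 17 fragments. The limit therefore separated weak peaks of like height.

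Of the listed genes of the acetyltransferase module, Tada3 was the one with a peak. Tada3, the adaptor that links the enzyme to ADA2, had no peak in replicate 1 and a single peak of 17 fragments (95% exact Poisson interval 9.9 to 27.2) in replicate 2. This peak ran from 113377727 to 113377868 on chromosome 6, with its summit 30 bp inside Tada3 and 305 bp from an end of Arpc4, which encodes a subunit of the actin-nucleating Arp2/3 complex. The spans of the 2 genes are separated by 274 bp, and their RefSeq starts point away from each other. The peak had a fold enrichment of 4.61 and ranked 2340 of 3126.

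Kat2a and Kat2b, which encode the alternative acetyltransferases, had no peak in either list. The nearest peaks to Kat2a were 25.7 kb away in replicate 1 (21 fragments) and 25.8 kb away in replicate 2 (23 fragments), at Rab5c. The nearest peaks to Kat2b were 87.5 kb and 87.4 kb away, with 22 and 24 fragments, at Rab5a. The nearest peaks to Tada2b were 891 kb away in replicate 1 and 264 kb in replicate 2. For Tada2a, the ADA2 protein of ATAC, these distances were 137 kb and 49.8 kb. The libraries placed the nearest peaks of Kat2a and Kat2b at nearly equal distances, whereas those of Tada2a and Tada2b differed between the libraries.

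Of the listed core-module genes, only Tada1 had a peak within 1 kb of its own end. Taf6l, which encodes a TAF6-like histone-fold scaffold, was counted through a replicate 2 peak of 18 fragments (95% exact Poisson interval 10.7 to 28.4) on chromosome 19 from 8770945 to 8771043. Its summit lay 3358 bp from the nearer end of Taf6l, 0 bp from an annotated end of Tmem223 and 86 bp from an end of Nxf1. It cannot be assigned to Taf6l by distance. The Tada1 summit in replicate 2 was 9.17 times as high as this one, a ratio that follows from how Tada1 was selected. The summits at Taf6l and Tada3 did not differ beyond their counting error.

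Taf5l, which encodes a WD-repeat scaffold of the core, had no peak, and its nearest peaks were 46.9 kb away in both replicates, with 58 and 73 fragments, at Nup133. Supt3, the core subunit known for contacting TBP, had none either, although its window of 352177 bp was the longest of the 9 and that of Kat2a, 17740 bp, the shortest. The nearest peak to Supt3 was 992 kb away in replicate 1 and 444 kb in replicate 2.

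Beyond the 9 genes, 17 other genes listed for SAGA were looked up: Trrap, Supt7l, Supt20, Sgf29, Taf9, Taf9b, Taf10, Taf12, Usp22, Atxn7, Atxn7l1, Atxn7l2, Atxn7l3, Atxn7l3b, Eny2, Sf3b3 and Sf3b5. Whether Atxn7l3b belongs to the complex was not checked, and the 17 below includes it. A region of the combined list was found at 5 of these 17 (29.4%), against 9.03% of all genes. Counting only regions within 1 kb of a gene end gave 4 of 17 (23.5%), against 6.99% of all genes. At an IDR of at most 0.05 (a score of at least 540) it was 2 of 17 (11.8%), against 4.09%. These 2 were Atxn7l1 and Atxn7l3. The region counted for Atxn7l3, also among the 5, lay 22 bp from an end of Tmub2 by its replicate 2 summit. It was 4371 bp from Atxn7l3 itself, so it cannot be assigned to Atxn7l3 by distance. This list was not tested, and like the 9 genes it was chosen with earlier results known.

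Atxn7l1, which encodes a relative of the deubiquitinase-module subunit ataxin-7, was the strongest of these. Replicate 1 had 67 fragments at its summit (51.9 to 85.1, 95% exact Poisson), and replicate 2 had 86 (68.8 to 106). Its rank was 48 and 49. Both replicates were high and their intervals overlapped. The Tada1 summit was 2.1 and 1.92 times as high, a description only, since Tada1 was selected on its height. The Atxn7l1 summits lay inside the gene, 753 bp and 749 bp from its annotated end. The region spanned chromosome 12 from 33147378 to 33148505, and its fold enrichment averaged 21.0 ± 8.4 (SD, n = 2). Its IDR was 0.0078.

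The other core-module genes with a region were Supt7l, Supt20 and Taf12, and all were weak. Supt7l, whose product pairs with a histone-fold partner in the core, had 20 fragments in replicate 1 and 26 in replicate 2, with the summit 7 bp and 13 bp from its end. Replicate 2 had another peak of 21 fragments there, 195 bp from an end of the neighbour Slc4a1ap. Supt20, a core scaffold, had 18 and 19 fragments, with the summit 52 bp inside its end in replicate 1 and 66 bp outside it in replicate 2. Taf12, a histone-fold subunit shared with TFIID, had 18 and 28 fragments, with its summits 4 bp outside and 18 bp inside its end. The IDR was 0.51 at Supt7l and Supt20 and 0.095 at Taf12. The strongest summits of these 3 genes were close to the medians of their lists and lay at the gene's own end in both libraries.

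In the deubiquitinase module, Atxn7l3, the adaptor that activates Usp22, was counted through a region with 30 and 40 fragments. Its summits lay 28 bp and 22 bp from an end of Tmub2 and over 4 kb from Atxn7l3, whose own end carried only 14 and 19 fragments in replicate 2. Usp22, the deubiquitinase itself, and Atxn7 had no peak. Eny2, a small adaptor also known from mRNA export, had 20 fragments in replicate 2 alone. Atxn7l3b, whose membership of SAGA was not checked, had 15 in replicate 1 alone. Trrap, the scaffold that activators contact, had none in either list. Sf3b5, a splicing factor subunit that SAGA shares, had 28 fragments in replicate 2 alone.

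**Figure D3:**
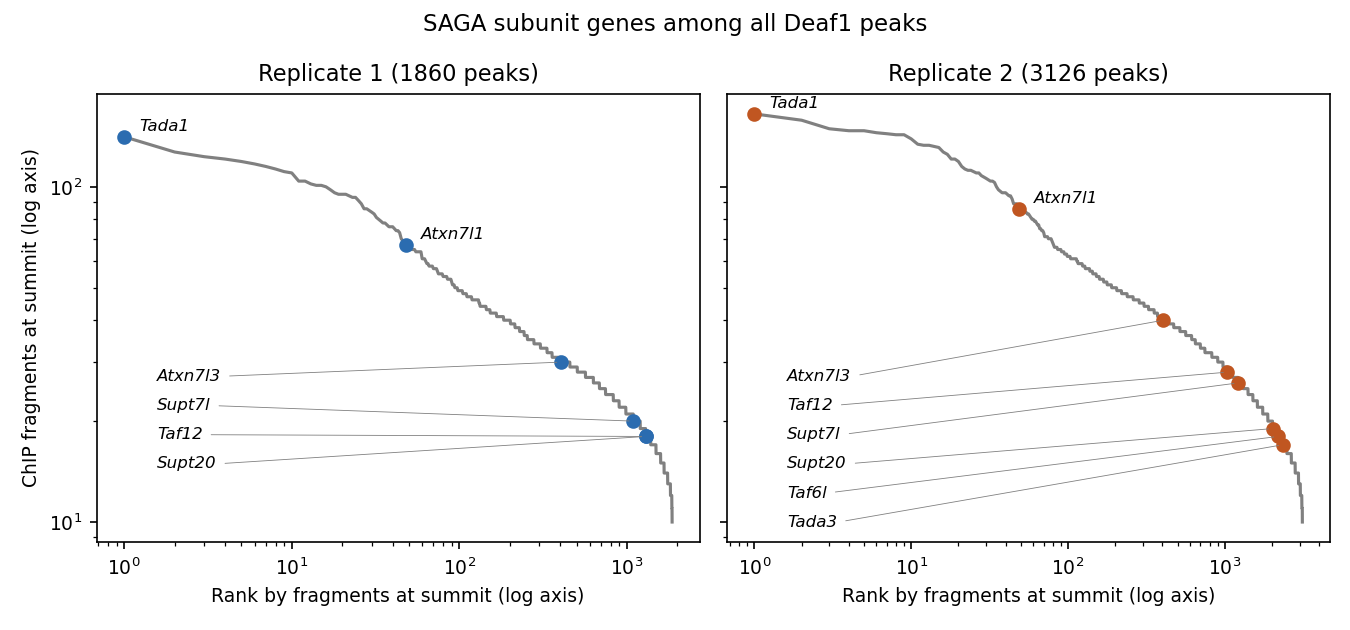
All peaks of each replicate sorted by ChIP fragments at the summit (grey line, both axes log), with the strongest peak counted for SAGA subunit genes marked. Tada1 is at rank 1 in both panels and Atxn7l1 at ranks 48 and 49, while Supt7l, Supt20 and Taf12 lie at rank 1041 or beyond; the marks for Taf6l and Atxn7l3 are peaks nearer to other genes.

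**Figure D4:**
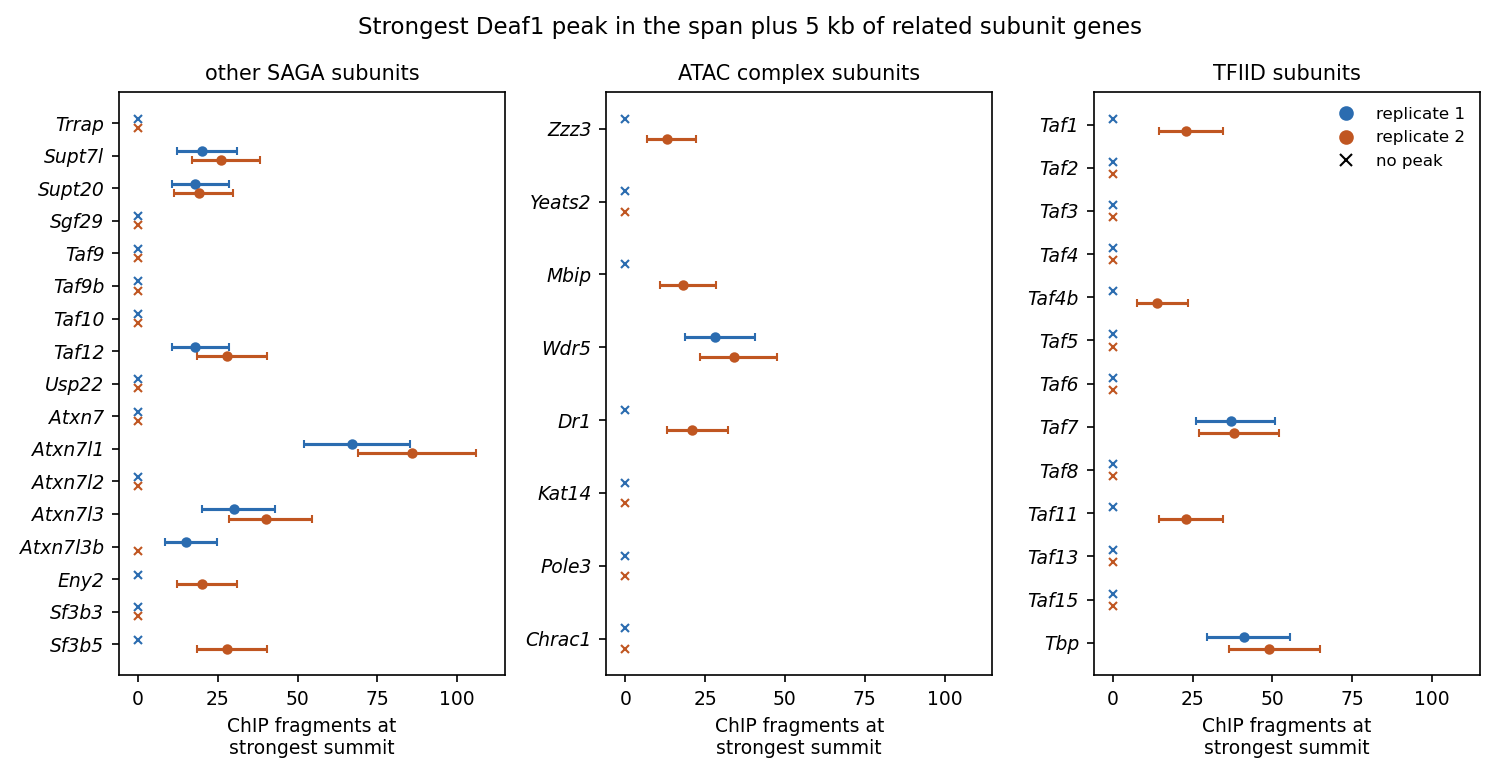
ChIP fragments at the strongest summit in the span plus 5 kb of 38 genes listed for other SAGA, ATAC and TFIID subunits. Replicate 1 is blue and replicate 2 orange, bars are 95% exact Poisson intervals, and crosses mark no peak. Atxn7l1 is the highest at 67 and 86 fragments, and 17 of the 38 genes have a peak in at least 1 list. Of all protein-coding genes, 9.71% have one in replicate 1 and 14.6% in replicate 2. The share of all genes with a peak in at least 1 list was not counted, so the 17 of 38 has no like background here.

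Promoter sequences bear on these peaks because several of the summits lie at RefSeq starts. The RefSeq table of promoters on GRCm38.p6, each with 250 bases before and 50 bases after a start, matched 8 of the 9 genes with 10 entries; the ninth is Tada1. The core TTCG was searched on both strands, where the other strand reads CGAA, and TTCGAA counts as a match on each strand. The sequences below are shown because they set promoters with and without a summit beside those with and without this core. Capitals mark TTCG or CGAA, and each reads 5′ to 3′ along the gene's strand.
Tada3, chr6:113377789-113378088, minus strand: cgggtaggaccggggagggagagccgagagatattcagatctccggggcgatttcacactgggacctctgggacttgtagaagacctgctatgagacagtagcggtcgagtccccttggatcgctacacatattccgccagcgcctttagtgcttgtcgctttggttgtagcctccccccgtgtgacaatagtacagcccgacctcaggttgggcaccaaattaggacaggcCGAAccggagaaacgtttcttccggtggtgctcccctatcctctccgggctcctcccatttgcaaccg
Kat2b, chr17:53566721-53567020, plus strand: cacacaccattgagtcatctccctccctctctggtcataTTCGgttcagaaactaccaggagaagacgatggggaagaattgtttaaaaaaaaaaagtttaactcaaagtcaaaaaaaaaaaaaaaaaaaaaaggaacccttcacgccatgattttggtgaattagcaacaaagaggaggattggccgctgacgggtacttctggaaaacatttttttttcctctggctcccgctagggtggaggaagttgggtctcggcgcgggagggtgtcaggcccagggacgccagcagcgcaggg
Atxn7l1, chr12:33147436-33147735, plus strand: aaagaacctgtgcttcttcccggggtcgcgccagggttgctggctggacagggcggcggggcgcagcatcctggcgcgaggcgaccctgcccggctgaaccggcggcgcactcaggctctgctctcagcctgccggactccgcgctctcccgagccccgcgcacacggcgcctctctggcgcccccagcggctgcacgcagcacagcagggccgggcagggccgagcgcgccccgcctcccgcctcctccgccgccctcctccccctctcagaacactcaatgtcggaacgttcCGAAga
Taf12, chr4:132274125-132274424, plus strand: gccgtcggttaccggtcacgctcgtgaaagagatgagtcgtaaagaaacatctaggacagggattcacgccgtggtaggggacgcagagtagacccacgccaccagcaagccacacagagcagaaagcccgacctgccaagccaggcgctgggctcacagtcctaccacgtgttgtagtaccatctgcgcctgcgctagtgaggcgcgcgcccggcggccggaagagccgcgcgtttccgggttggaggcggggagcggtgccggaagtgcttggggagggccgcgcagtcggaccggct

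Summits and TTCG did not go together one to one at these genes. With the start site counted as 0, the Tada3 promoter has its only match on the other strand at bases -18 to -15, with its centre 46.5 bp from the replicate 2 summit at base 30. Atxn7l1 has 5 promoter entries, and the one shown, entry 3 by position, is the only one with a summit. It has a match on the other strand at bases 44 to 47, 10.5 bp from the replicate 1 summit and 14.5 bp from the replicate 2 summit. Entries 1 and 2 of Atxn7l1 have a match and no summit, and entries 4 and 5 have neither. The Taf12 promoter has summits in both replicates and no match. Kat2b has 2 promoter entries, each with a match and no summit. The match lies at bases -211 to -208 in the entry shown and at -201 to -198 in the other. A match describes these letters only and does not show a binding site.

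Among the 10 promoter entries of the 8 genes, 6 held TTCG, and none held it more than once. Of all 32851 promoters of this length, 44.7% held at least 1 match and 16.7% at least 2. Of the 1216 promoters with a summit in both replicates, 72.1% held at least 1 and 42.2% at least 2. The longer TTCGG, which contains TTCG, was held by 19.2% of all promoters and by 41.4% of those with a summit in both. Promoters with summits also had more CpG, a median of 24 per promoter against 7 among all promoters, and the part of base composition in these shares was not tested. The GC content of the genes' promoters ran from 47.0% at Kat2b to 81.7% at Taf5l, against a median of 52.7% among all promoters and of 61.0% with a summit in both.

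The regions most like Tada1, by the distance between log2 summit heights over the 2 libraries, were those at Extl3, Creb1 and Pik3r2. The region inside Extl3 had 123 and 149 fragments, at a log2 distance of 0.246. The region at Creb1, which encodes a cAMP-responsive transcription factor, had 121 and 145, at a distance of 0.289. The region at Pik3r2, which encodes a regulatory subunit of PI3-kinase, had 119 and 147, at a distance of 0.296. Their heights are within counting error of those at Tada1. Each was a single peak in replicate 2 and was split into 3 to 5 peaks in replicate 1, with an IDR of 0.35, 0.35 and 0.51, whereas Tada1 was a single peak in both libraries.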

How the data were processed

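Deaf1 ChIP-seq peak lists of 2 C2C12 libraries and the authors' combined list for the pair were analysed; values of the 2 inputs were not analysed here. The submitters' processing notes name FastQC 0.11.8, BWA 0.7.17-r1198, MACS2 2.1.2 and the build mm10 (GRCm38), without settings. The labels' protocols describe formaldehyde fixation yet also name native ChIP-seq, which was not resolved. The deposited fold enrichment (a ratio of ChIP to local background) and the deposited −log10 p and q are the authors' values per peak, called per library. Fragments and background at each summit were recovered from fold = (pileup + 1)/(background + 1) and the Poisson p. For 100% of peaks, 1 whole number fitted (error in −log10 p at most 5.07e-05). All of 992 summits simulated with these same formulas were returned exactly, which checks the inversion alone and not the formulas. The deposited score of the combined list is the authors' scaled IDR. Its 6 columns of values for single libraries were not used.

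Coordinates are 1-based. Peaks overlapping a gene's span plus 5 kb by at least 1 bp were counted, over 21887 protein-coding genes on chromosomes 1 to 19, X and Y. Spans carry no strand; strands came from the promoter table. No test was run. Intervals are 95% exact Poisson, counting error only, since duplicate handling is not given in the sources used here. The genes named were the 9 members, genes with an end within 1 kb of their summits, genes of the other subunit lists with a region, and the 3 regions nearest to Tada1 in height; other genes named, such as those nearest to a member without a peak, were chosen after their values were seen. The members and lists were chosen with earlier results of these data known. Alternatives covered the window, q, IDR score, background and each replicate left out. Python 3.11.15, scipy 1.17.1 and pandas 2.3.3 were used.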

Additional observations from a re-analysis of the deposited data

How the results depend on the processing

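Tada1 was the only one of the 9 genes with a region in the combined list under every alternative that used that list: the gene span alone, 10 kb on each side, 1 kb around gene ends, −log10 q of at least 5, scores of at least 540 and 830, both summits inside the window, and the nearest gene end, the last chosen after seeing the data. All of these except the 10 kb window only narrow the main rule, so they could remove Tada1 but could not add a gene. Since Tada1 was selected on its height, its passing the stricter q is no support. With a single library in place of the combined list the number ran from 1 (without replicate 2) to 3 (without replicate 1). In replicate 2 the 3 genes became 2 under 4 alternatives: Taf6l dropped out with the span alone, with gene ends or with the nearest end, and Tada3 with the stricter q. The rank of Tada1 by the caller's fold was 6 in its lower library. Its mean fold ran from 39.1 to 53.7 with 1 replicate left out and was 52.2 over the genome-wide background. The ratio of Tada1 to the next highest member could be formed only in replicate 2, since no other member had a peak in replicate 1; it was 8.74 by fold and 10.2 above the local background. No paired analysis was possible because the files used here hold values for the ChIP libraries alone, which form a single group. At 10 to 28 fragments a summit, counting error spans most differences between weak peaks.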

Other observations

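ATAC and TFIID share subunits or functions with SAGA, and their genes were looked up in the same way. Shared subunits already counted with SAGA were left out of these lists, which affects the shares below. Of those left out of ATAC, Kat2a, Kat2b, Tada2a, Tada3 and Sgf29 had no region, and only Tada3 had a peak, in replicate 2. Of those left out of TFIID, Taf12 had a region, whereas Taf9, Taf9b and Taf10 had no peak. Of 8 ATAC genes, 1 had a region of the combined list (12.5%, against 9.03% of all genes). It was Wdr5, which encodes a WD-repeat protein shared with histone methyltransferase complexes, with 28 and 34 fragments and an IDR of 0.13. The region lay 3685 bp beyond the gene by its replicate 2 summit. In replicate 2, 4 of the 8 had a peak (50%, against 14.6% of all genes); besides Wdr5, these were Dr1 with 21 fragments, Mbip with 18 and Zzz3 with 13, none of which had one in replicate 1. Of 13 TFIID genes, Taf7 and Tbp had a region (15.4%, against 9.03% of all genes). Tbp, which encodes the TATA-binding protein that SAGA delivers to promoters, had 41 fragments in replicate 1 and 49 in replicate 2, at its own end, with an IDR of 0.013. Taf7 had 37 and 38 fragments, 16 bp from its end by the replicate 2 summit, with an IDR of 0.014. In replicate 2, 5 of the 13 had a peak (38.5%, against 14.6% of all genes); Taf1 and Taf11 had 23 fragments each and Taf4b had 14, with none in replicate 1. These lists were not tested. The TFIID counterparts of Taf5l and Taf6l, which are Taf5 and Taf6, had no peak in either list. The plot of strongest summits by complex, drawn for 38 genes, sets these beside the other SAGA subunits.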
